A study of Homo sapiens with 12 samples.

Results

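A set of 10 genes that write, maintain, read or remove DNA methylation was examined in RNA sequencing of G401, a cell line from a human malignant rhabdoid tumour. The members were listed by name and found by gene identifier: DNMT1, DNMT3A, DNMT3B, TET1, TET2, TET3, UHRF1, UHRF2, MBD2 and TDG. Of these 10 genes, 9 matched a row among the 57820 gene rows of the deposited tables, and all 9 passed the filter on low counts. UHRF1 was not analysed here, since the identifier paired with its symbol in the reference tables matched no row and an older one was not sought. All 12 libraries came from G401 with the genotype SMARCB1(-/-), so the control cells lack SMARCB1, which belongs to the chromatin remodelling machinery known as SWI/SNF or BAF. Doxycycline induced either GFP or SMARCB1, and each kind of cell was then given DMSO, the solvent, or dBRD9-A for 24 hours. dBRD9-A is a small molecule that causes degradation of BRD9, which marks the non-canonical form of BAF. The 4 groups, GFP with DMSO, GFP with dBRD9-A, SMARCB1 with DMSO and SMARCB1 with dBRD9-A, had 3 replicates each. The study set SMARCB1 against GFP and dBRD9-A against DMSO, which asks how each change acts alone and how they act together. The labels do not say how long doxycycline was given, or whether replicates were separate cultures, so p-values measure the spread between these samples, which may be technical.

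Methylation of cytosine at CpG dinucleotides is set up and kept by DNA methyltransferases. DNMT1 copies the pattern to the new strand after replication, and UHRF1 and its paralog UHRF2 bind hemimethylated DNA. DNMT3A and DNMT3B methylate unmodified CpG de novo, and DNMT3B is typically abundant in early embryonic cells and low in most adult tissues. TET1, TET2 and TET3 oxidise methylcytosine in a reaction that uses alpha-ketoglutarate. TDG, a DNA glycosylase, cuts out the most oxidised forms so that base excision repair can restore an unmodified cytosine. MBD2 binds methylated CpG and is a subunit of a NuRD repressor complex. The libraries measure the messenger RNA of these genes; DNA methylation itself was not measured.

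CpG is the letter pair on which these proteins act, and stretches next to the start sites of 3 members show how unevenly it is spread. Chosen after the values were seen, they are the 3 with the smallest adjusted p for SMARCB1 against GFP in DMSO among the 5 members with a single start in the RefSeq promoter table (build GRCh38.p14). All 9 members matched this table, which holds 18 windows for them and 35116 windows in all. CpG is in capitals, and bases that GENCODE lists as exon were left out of the stretches.
DNMT3B, chr20:32779602-32779851, plus strand: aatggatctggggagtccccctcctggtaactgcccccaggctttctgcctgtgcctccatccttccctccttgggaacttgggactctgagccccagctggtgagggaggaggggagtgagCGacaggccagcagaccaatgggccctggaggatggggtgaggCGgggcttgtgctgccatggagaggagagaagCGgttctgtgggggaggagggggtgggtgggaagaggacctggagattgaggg
MBD2, chr18:54224789-54224919, minus strand: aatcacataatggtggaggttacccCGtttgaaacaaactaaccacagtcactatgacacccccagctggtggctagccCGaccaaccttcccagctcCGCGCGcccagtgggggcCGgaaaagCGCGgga
TDG, chr12:103965622-103965803, plus strand: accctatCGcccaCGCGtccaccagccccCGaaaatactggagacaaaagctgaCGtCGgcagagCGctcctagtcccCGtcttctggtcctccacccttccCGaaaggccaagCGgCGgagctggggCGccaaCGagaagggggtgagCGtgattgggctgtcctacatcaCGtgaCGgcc
The 3 stretches hold 3 CpG in 250 bases, 8 in 131 and 16 in 182. In the whole 250 bases before the RefSeq start, DNMT3B had 3 CpG, MBD2 21 and TDG 22, against a median of 11 over all windows. As many CpG or more stood in 77.1% of all windows for DNMT3B, in 30.2% for MBD2 and in 28% for TDG. The DNMT3B stretch precedes an inner start: 5 of its 6 GENCODE transcripts start further upstream, the outermost 17.5 kb away. Across the 18 windows of the 9 members the number of CpG ran from 3 to 37. These letters describe the genome reference, not the state of G401.

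Gene counts per library came to 34.97 to 58.54 megacounts (1 megacount is 1e6 counts), and no library stood apart, with rank correlations within groups between 0.9967 and 0.9983. SMARCB1 had 0 to 2 counts in each of the 6 GFP libraries, 69021 to 110893 in SMARCB1 cells with DMSO and 53033 to 71966 in SMARCB1 cells with dBRD9-A, so it fell by 0.52 ± 0.03 log2 (SE, adjusted p = 4.95e-08) there. BRD9 messenger RNA is not the target of a protein degrader, and its log2 change with dBRD9-A was 0.10 in GFP cells (adjusted p = 0.146) and 0.02 in SMARCB1 cells (adjusted p = 0.921). Vimentin (VIM) and the keratins KRT8 and KRT18 were abundant in every library. Of 6 markers of blood, endothelial, liver and red cells, PTPRC and CD3E were at 0 throughout, CD14, ALB and HBB had at most 4 counts, and CDH5 had 0 in GFP cells and 3 to 10 in SMARCB1 cells.

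Among the methyltransferases, DNMT1 and DNMT3B were the abundant members and DNMT3A was scarce. Levels between genes were compared as counts per megacount (CPM) per kb of the principal transcript, on TMM-scaled libraries. In GFP cells with DMSO, DNMT3B stood at 38.9 ± 1.48, DNMT1 at 31.9 ± 0.698 and DNMT3A at 1.14 ± 0.0402 CPM per kb (SD, n = 3). In SMARCB1 cells with DMSO, the order of the first pair turned: DNMT1 stood at 35.6 ± 1.51, DNMT3B at 21.6 ± 0.588 and DNMT3A at 0.883 ± 0.0274 CPM per kb. DNMT3B thus made up 54.1% ± 0.464 of the summed level of the 3 methyltransferases in GFP cells with DMSO and 37.2% ± 0.958 in SMARCB1 cells with DMSO. With dBRD9-A its share was 56.4% ± 0.349 in GFP cells and 37.8% ± 1.85 in SMARCB1 cells (SD, n = 3 each). The share did not overlap between GFP and SMARCB1 libraries, and it does not depend on how the libraries were scaled. The turn in order does depend on the length used: with all annotated exons of each gene, DNMT3B had 49.9% in SMARCB1 cells with DMSO and DNMT1 48.4%.

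**Figure D1:**
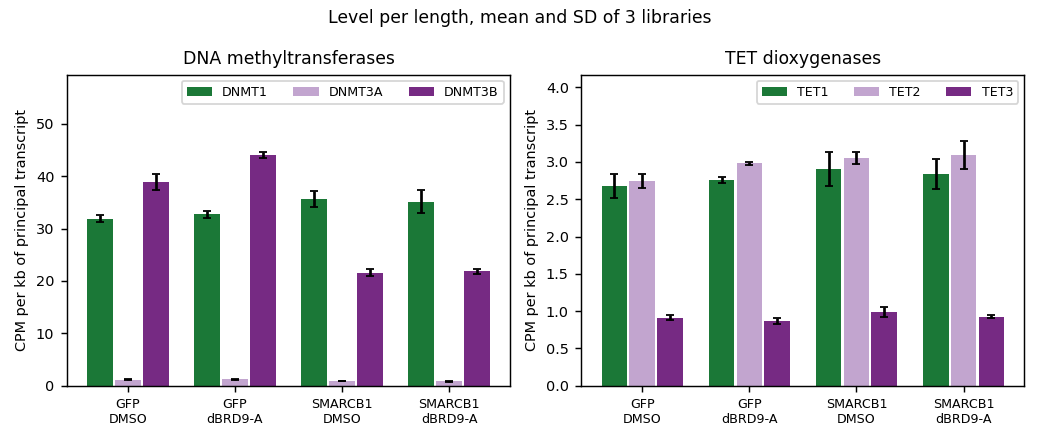
Mean level per length of the 3 DNA methyltransferases and the 3 TET dioxygenases in the 4 groups, in CPM per kb of principal transcript; bars start at 0 and error bars are SDs of 3 libraries. DNMT3B stands above DNMT1 in both GFP groups (38.9 and 44 against 31.9 and 32.7) and below it in both SMARCB1 groups (21.6 and 21.8 against 35.6 and 35.1), an order that holds for this choice of length.

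The TET genes were far scarcer per length than DNMT1 and DNMT3B, and their make-up moved little between the 4 groups, with TET1 at 41.4% to 42.3% and TET2 at 43.3% to 45.1% of their summed level. In GFP cells with DMSO, TET1 stood at 2.68 ± 0.16, TET2 at 2.74 ± 0.0949 and TET3 at 0.912 ± 0.0364 CPM per kb (SD, n = 3). TET3 was the lowest of the 3 in every group, with 13.1% to 14.4%. TET1 and TET2 lay within their spread of each other in GFP cells with DMSO, and their order depends on the length, since TET1 had 51.3% and TET2 32.4% there with all annotated exons.

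**Figure D2:**
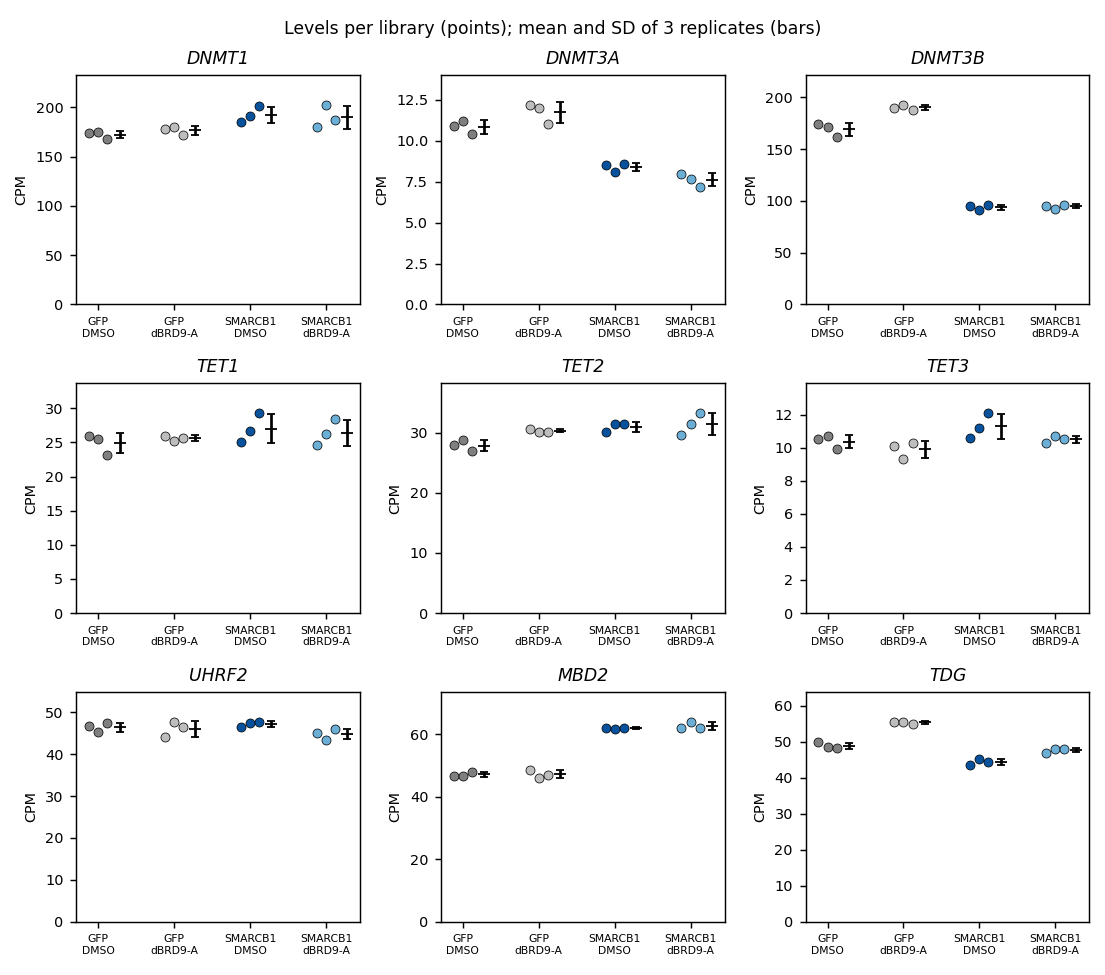
CPM of the 9 members in each of the 12 libraries (points), with the group mean and SD of 3 replicates (bars), on TMM-scaled libraries and with the vertical axis from 0 in each panel. DNMT3B and DNMT3A lie lower, and MBD2 higher, in all 6 SMARCB1 libraries than in all 6 GFP libraries, while UHRF2 and TET1 overlap between the groups.

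SMARCB1 against GFP in DMSO shows SMARCB1 alone. DNMT3B, DNMT3A and TDG were lower in the SMARCB1 cells, DNMT1, TET2 and MBD2 were higher, and TET1, TET3 and UHRF2 did not pass the test. These 6 of 9 members called at adjusted p under 0.05 (edgeR's quasi-likelihood test) stand beside 65% of all 15750 genes called in this comparison, with 33.5% of all genes higher and 31.6% lower. The members' share was thus near that of genes at large. In bulk samples such as these, fewer cells of a type and less RNA per cell cannot be told apart. Their median log2 difference was 0.13, against -0.0047 over all genes, and the median size of the difference, without sign, was 0.156 against 0.284.

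DNMT3B differed most among the 9. Its level was 174, 171 and 162 CPM in the 3 GFP libraries with DMSO and 94.9, 91 and 95.8 CPM in the 3 SMARCB1 libraries with DMSO. Every SMARCB1 library lay far below every GFP library. The log2 fold change was -0.85 ± 0.03 (SE, adjusted p = 1.17e-13), which is a change of -44.4%. Of all genes tested, 17.9% changed by more, in either direction. DNMT3A, the other de novo enzyme, had 10.9, 11.2 and 10.4 CPM in GFP cells and 8.48, 8.09 and 8.58 CPM in SMARCB1 cells. Its groups did not overlap either, and its log2 fold change was -0.37 ± 0.06 (SE, adjusted p = 6.29e-05). DNMT1, the maintenance enzyme, went the other way by a small amount. It had 174, 175 and 168 CPM in GFP cells and 185, 191 and 201 CPM in SMARCB1 cells, without overlap, and rose by 0.16 ± 0.04 log2 (SE, adjusted p = 0.00188).

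Because DNMT1 and DNMT3B were read in the same libraries, their count ratio is free of any scaling. DNMT3B had 0.998, 0.977 and 0.961 counts per DNMT1 count in GFP cells with DMSO and 0.512, 0.476 and 0.475 in SMARCB1 cells with DMSO. With dBRD9-A the ratio was 1.07, 1.08 and 1.09 in GFP cells and 0.53, 0.455 and 0.514 in SMARCB1 cells. All 6 SMARCB1 libraries thus lay near 0.5, and all 6 GFP libraries near 1. The mean ratio in SMARCB1 cells was 0.498 times that in GFP cells in DMSO and 0.463 times in dBRD9-A. An exact two-sided permutation test gave p = 0.1 for each, the smallest that 3 against 3 libraries allow, and 0.246 after adjustment over 32 such ratios. These ratios were added after the data had been seen.

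Of the demethylation genes, TDG fell and TET2 rose slightly. TDG had 49.9, 48.5 and 48.3 CPM in GFP cells and 43.5, 45.1 and 44.3 CPM in SMARCB1 cells, without overlap, and fell by 0.14 ± 0.03 log2 (SE, adjusted p = 0.000508). TET2 had 27.9, 28.8 and 26.9 CPM against 30.1, 31.4 and 31.5 CPM and rose by 0.16 ± 0.04 log2 (SE, adjusted p = 0.00532). TET1 and TET3, each 0.13 ± 0.06 log2 higher (SE), did not pass (adjusted p = 0.0795 and 0.0839), with 95% intervals of -0.01 to 0.27 and -0.02 to 0.27. Both passed in only 1 of the 12 fits that each left out 1 library, the fit without SMARCB1 replicate 1 in DMSO. They stood there at 0.17 log2 each (adjusted p = 0.0253 and 0.0415). Over the 12 fits the lowest values were 0.06 log2 for TET1 and 0.07 for TET3, with adjusted p up to 0.44 and 0.393. With libraries scaled by the spike-in RNAs both also passed, at 0.29 and 0.30 log2 (adjusted p = 0.00169 and 0.0058). That scaling moved the median of all genes by 0.17. The direction of the TDG difference rests on the scaling: with libraries scaled by the spike-in RNAs it was 0.03 (adjusted p = 0.758).

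MBD2, the methyl-CpG reader, had the largest rise among the members. It had 46.5, 46.7 and 48 CPM in GFP cells and 62.1, 61.6 and 61.9 CPM in SMARCB1 cells. The groups were well apart, and the log2 fold change was 0.39 ± 0.03 (SE, adjusted p = 3.4e-09). UHRF2 had 46.7, 45.3 and 47.4 CPM against 46.4, 47.5 and 47.8 CPM, and the groups overlapped. It differed by 0.02 ± 0.04 log2 (SE, adjusted p = 0.613, 95% interval -0.06 to 0.11). With spike-in scaling, which moved the median of all genes by 0.17, UHRF2 was 0.19 log2 higher (adjusted p = 0.0152).

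Under dBRD9-A, SMARCB1 against GFP gave a similar set of differences: DNMT3B, DNMT3A and TDG were lower, and DNMT1 and MBD2 higher. The 5 of 9 members called stand beside 63.3% of all genes, 33% higher and 30.4% lower, so again the share was close to that of genes at large. DNMT3B had 190, 193 and 188 CPM in GFP cells and 95.4, 92.4 and 96.1 CPM in SMARCB1 cells, and fell by 1.01 ± 0.03 log2 (SE, adjusted p = 1.07e-14). DNMT3A had 12.2, 12 and 11 CPM against 7.95, 7.67 and 7.17 CPM and fell by 0.62 ± 0.07 log2 (SE, adjusted p = 1.84e-07). MBD2 had 48.5, 46.1 and 46.9 CPM against 61.9, 64 and 61.9 CPM and rose by 0.41 ± 0.03 log2 (SE, adjusted p = 3.03e-09). In these 3 genes, and also in TDG and DNMT1, no SMARCB1 library overlapped a GFP library. The share of all genes without such overlap is not given here. TDG had 55.6, 55.6 and 54.9 CPM against 47, 47.9 and 48.1 CPM and fell by 0.22 ± 0.03 log2 (SE, adjusted p = 7.34e-06).

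DNMT1 was the weakest call in dBRD9-A. It had 178, 180 and 172 CPM in GFP cells and 180, 203 and 187 CPM in SMARCB1 cells, where the highest GFP and the lowest SMARCB1 library both rounded to 180 and the groups did not overlap. It was 0.10 ± 0.04 log2 higher (SE, adjusted p = 0.0317), but missed the threshold when any 1 of 4 libraries was left out: GFP replicate 3 in DMSO (0.0529), GFP replicates 1 (0.0631) and 3 (0.129) in dBRD9-A, and SMARCB1 replicate 2 in dBRD9-A (0.236). With spike-in scaling it turned to -0.22 (adjusted p = 0.00309). TET1, TET2, TET3 and UHRF2 differed by 0.04, 0.05, 0.09 and -0.04 log2, with adjusted p from 0.243 to 0.576. With spike-in scaling they stood at -0.29, -0.28, -0.24 and -0.37 (adjusted p from 1.47e-05 to 0.0245). The median of all genes was then -0.32. This comparison and that in DMSO use separate libraries.

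**Figure D3:**
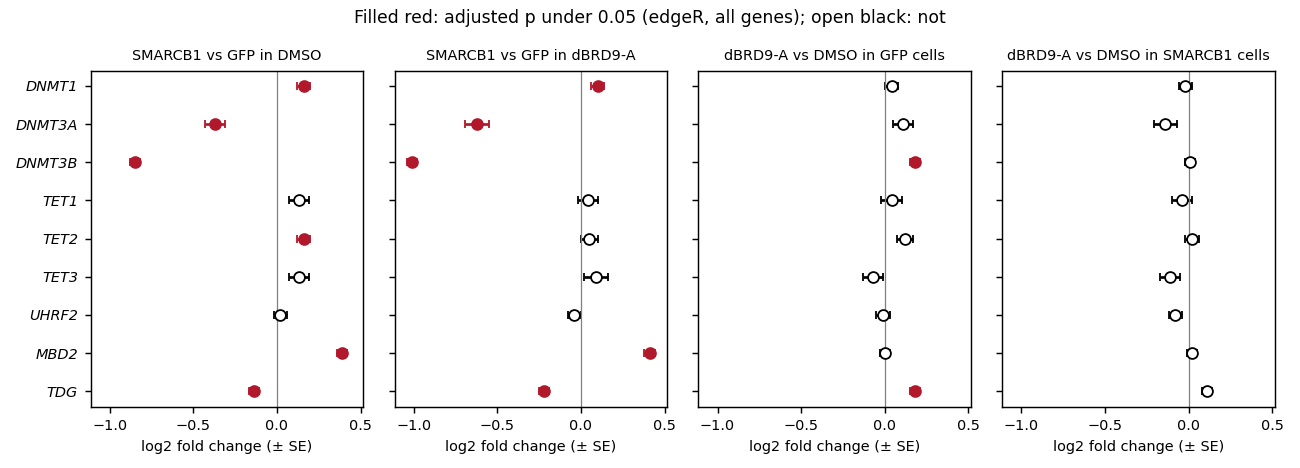
Log2 fold change and SE of the 9 members in the 4 comparisons on TMM-scaled libraries, from the edgeR fit over 12 libraries; filled red points have an adjusted p under 0.05. The 2 panels of SMARCB1 against GFP hold 6 and 5 filled points, with DNMT3B farthest left at -0.85 and -1.01, and the panels of dBRD9-A hold 2 and 0; under spike-in scaling the signs of TDG (SMARCB1 against GFP in DMSO), of DNMT1, TET1, TET2 and TET3 (in dBRD9-A) and of TET3 and UHRF2 (dBRD9-A in GFP cells) turn.

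dBRD9-A against DMSO in GFP cells shows the response to the compound without SMARCB1. BRD9 protein was not measured in these libraries. DNMT3B and TDG rose, by 12.9% and 13.2%, and the other 7 members did not pass the test. The 2 of 9 called stand beside 15.9% of all genes, of which 7.43% were higher and 8.47% lower. DNMT3B went from 174, 171 and 162 CPM in DMSO to 190, 193 and 188 CPM with dBRD9-A, without overlap, a rise of 0.18 ± 0.03 log2 (SE, adjusted p = 0.000704). TDG went from 49.9, 48.5 and 48.3 CPM to 55.6, 55.6 and 54.9 CPM, again without overlap, a rise of 0.18 ± 0.03 log2 (SE, adjusted p = 0.00048). On TMM-scaled libraries both genes had been lower with SMARCB1 in DMSO, a comparison that shares the GFP libraries with DMSO, though for TDG that difference was 0.03 with spike-in scaling. TET2, at 30.6, 30.2 and 30.2 CPM with dBRD9-A, also lay above all 3 DMSO libraries, but its difference of 0.12 ± 0.05 log2 (SE) did not pass (adjusted p = 0.0787). Fitted on these 2 groups alone it did (0.13, adjusted p = 0.0378). DNMT3A differed by 0.11 ± 0.06 log2 (SE, adjusted p = 0.254), and DNMT1, TET1, TET3, UHRF2 and MBD2 by -0.07 to 0.04 log2 with adjusted p from 0.535 to 0.96.

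In SMARCB1 cells dBRD9-A changed none of the 9 members at adjusted p under 0.05, by edgeR or by DESeq2, beside 1.93% of all genes (0.679% higher and 1.25% lower). DNMT3A and TDG had an unadjusted p under 0.05, and the share of all genes under that threshold is not given here. TDG went from 43.5, 45.1 and 44.3 CPM to 47, 47.9 and 48.1 CPM, groups that did not overlap, with a log2 difference of 0.11 ± 0.03 (SE, adjusted p = 0.106). DNMT3A went from 8.48, 8.09 and 8.58 CPM to 7.95, 7.67 and 7.17 CPM, also without overlap, with a log2 difference of -0.14 ± 0.07 (SE, adjusted p = 0.373). UHRF2 went from 46.4, 47.5 and 47.8 CPM to 45.1, 43.5 and 46 CPM, again without overlap. Its log2 difference was -0.08 ± 0.04 (SE, adjusted p = 0.42). How many of all genes lacked overlap here is not given. DNMT3B lay at 95.4, 92.4 and 96.1 CPM against the 94.9, 91 and 95.8 CPM of DMSO, with overlap. Its 95% interval was -0.06 to 0.08 log2, and 0.10 to 0.25 in GFP cells. Whether these 2 responses differ is the question of the interaction, given next. The SMARCB1 transgene itself was lower with dBRD9-A in these cells, and its part in these values was not tested.

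Whether the response to dBRD9-A differed between SMARCB1 and GFP cells was tested by the interaction. DNMT3B was called, at -0.17 ± 0.04 log2 (SE, adjusted p = 0.0488), beside 3.8% of all genes (2.15% positive and 1.65% negative). It was lost in 9 of the 12 fits that each left out 1 library, all but those without GFP replicate 1 in DMSO, SMARCB1 replicate 2 in DMSO or SMARCB1 replicate 3 in dBRD9-A, with adjusted p from 0.0378 to 0.118 and values from -0.19 to -0.14. TDG, whose rise passed in GFP cells and not in SMARCB1 cells, had an interaction of -0.07 ± 0.04 (SE, adjusted p = 0.431), so its responses were not shown to differ. DNMT3A had -0.26 ± 0.09 (SE, adjusted p = 0.152), and the remaining 6 members -0.10 to 0.01.

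Most differences of the members were small, and a different scaling turned several of them. The libraries hold spike-in RNAs of the ERCC set, at 0.9634% to 1.302% of total counts, and the labels do not say whether they were added per cell or per mass of RNA. Scaling by spike-ins moved the median of all genes by 0.17 log2 for SMARCB1 against GFP in DMSO, 0.36 for dBRD9-A in GFP cells, -0.14 for dBRD9-A in SMARCB1 cells and -0.32 for SMARCB1 against GFP in dBRD9-A. Only DNMT3B kept its sign and its call in both comparisons of SMARCB1 with GFP among the 5 members called in both: its log2 fold change became -0.68 (adjusted p = 2.65e-11) in DMSO and -1.34 in dBRD9-A. DNMT3A kept its sign but missed the threshold in DMSO (-0.20, adjusted p = 0.0667), and MBD2 missed it in dBRD9-A (0.08, adjusted p = 0.291). For dBRD9-A in GFP cells all 9 members were higher with spike-in scaling, from 0.29 for TET3 to 0.54 for TDG, around the shift of 0.36 for all genes. DNMT3B (0.53) and TDG (0.54) were the highest of the 9 with either scaling. A change of scaling moves all genes of a comparison by nearly the same amount, so this order is no test.

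**Figure D4:**
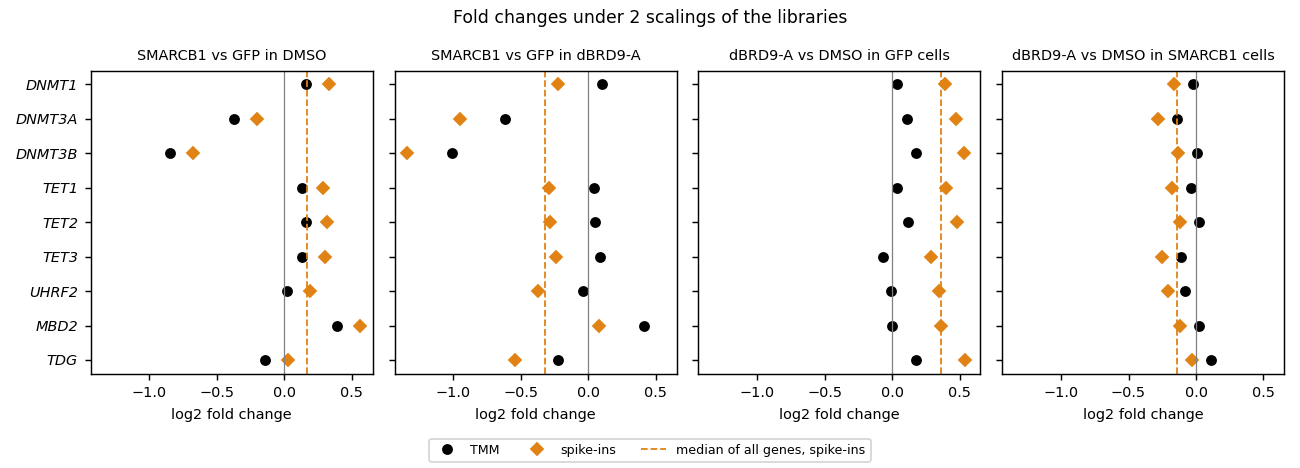
Log2 fold changes of the 9 members in the 4 comparisons with TMM scaling (circles) and with spike-in scaling (diamonds); the dashed line is the median of all genes under spike-in scaling. All members move with the dashed line, so their order is kept while several signs turn, TDG in DMSO from -0.14 to 0.03 and DNMT1 in dBRD9-A from 0.10 to -0.22 among them.

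Lists of other genes of the same biology were examined beside the members. With SMARCB1 in DMSO, where all genes had a median log2 difference of -0.0047, the medians were 0.054 for partners and paralogs, 0.19 for other readers, -0.013 for repair genes, -0.12 for the methionine cycle, 0.0011 for alpha-ketoglutarate genes, 0.052 for S phase and 0.27 for G2/M genes. With SMARCB1 in dBRD9-A the list medians ran from -0.094 for the methionine cycle to 0.21 for G2/M genes, with dBRD9-A in GFP cells from -0.064 to 0.062, and with dBRD9-A in SMARCB1 cells from -0.035 to 0.007. Of 14 partners and paralogs of DNMT1, UHRF1 and the DNMT3 enzymes, 6 rose and 5 fell with SMARCB1 in DMSO, or 78.6% called beside 65% of all genes. With spike-in scaling 9 rose and 3 fell. TRDMT1, a DNMT paralog that methylates transfer RNA, rose by 0.81 ± 0.05 log2 (SE, adjusted p = 8.15e-11). CDCA7L and ZBTB24 fell by 0.58 ± 0.03 and 0.37 ± 0.04 log2 (SE, adjusted p = 2.35e-11 and 3.24e-07); mutations of ZBTB24 and of DNMT3B both cause the ICF syndrome of centromere hypomethylation. In dBRD9-A 8 rose and 5 fell with SMARCB1, or 92.9% beside 63.3% of all genes, and 1 rose and 10 fell with spike-in scaling. With dBRD9-A itself, 1 rose and 3 fell in GFP cells, or 28.6% beside 15.9% of all genes. In SMARCB1 cells 1 rose and 1 fell, or 14.3% beside 1.93% of all genes. CDCA7, which recruits the remodeller HELLS, had a log2 change of -0.19 in GFP cells (adjusted p = 9.33e-05) and -0.14 in SMARCB1 cells (adjusted p = 0.00814), but 0.17 in GFP cells with spike-in scaling. The call in SMARCB1 cells was lost without SMARCB1 replicate 2 in DMSO.

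DNMT3L, the catalytically inactive cofactor of DNMT3A and DNMT3B and normally a germ cell and early embryo gene, stood out in the list and was chosen after its values were seen. It had 32 to 43 counts per library in GFP cells with DMSO, 7 to 13 in GFP cells with dBRD9-A, 0 to 1 in SMARCB1 cells with DMSO and 0 to 2 in SMARCB1 cells with dBRD9-A. Neither GFP group overlapped the other or the SMARCB1 libraries, and the level was a very low 0.773 ± 0.244 CPM (SD, n = 3) at its highest. The gene passed the filter on low counts through the groups where it is high, so its counts are given as a description and no test of it is printed. It is nonetheless 1 of the partners counted above as lower, so those counts and shares hold a call that the filter favoured.

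Of 12 other tested genes from families of CpG or methyl-CpG readers, 7 rose with SMARCB1 in DMSO and 0 fell. The share called was 58.3%, no more than the 65% of all genes, and with spike-in scaling 9 rose and 0 fell. A place in such a family does not show that a protein, MBD6 among them, binds methyl-CpG. MBD6, at 0.48 ± 0.18 log2 (SE, adjusted p = 0.0291), and ZBTB38, at 0.35 ± 0.04 (adjusted p = 1.5e-06), rose most among those with a mean of at least 50 counts. MBD6 was scarce, at 0.95 ± 0.164 CPM in GFP cells and 1.3 ± 0.229 CPM in SMARCB1 cells with DMSO (SD, n = 3). It lost its call without GFP replicate 3 or SMARCB1 replicates 1 or 3 in DMSO. In dBRD9-A 4 rose and 1 fell with SMARCB1, or 41.7% beside 63.3% of all genes, and 0 rose and 8 fell with spike-in scaling. For dBRD9-A itself, 3 rose in GFP cells, or 25% beside 15.9% of all genes, and 0 changed in SMARCB1 cells, beside 1.93%.

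Of 17 tested genes of oxidised-base repair and its recruitment, the path on which TDG acts, 7 rose and 4 fell with SMARCB1 in each of DMSO and dBRD9-A, and 9 and 2 in DMSO and 2 and 10 in dBRD9-A with spike-in scaling. The 64.7% called in each was close to the 65% and 63.3% of all genes. APOBEC3B, a cytosine deaminase of a family of close paralogs that can share reads, had 6.03 ± 0.178 CPM in GFP cells and 22.3 ± 0.728 CPM in SMARCB1 cells with DMSO (SD, n = 3). It rose by 1.88 ± 0.06 log2 (SE, adjusted p = 7.98e-15). GADD45A, a stress-response gene linked to active demethylation, rose by 0.92 ± 0.05 log2 (SE, adjusted p = 7.1e-11). CXXC4, a CpG-binding protein that interacts with TET2, fell by 0.89 ± 0.09 log2 (SE, adjusted p = 7.12e-08), and the glycosylase NEIL2 by 0.79 ± 0.03 (SE, adjusted p = 1.09e-12). These 4 genes kept sign and call with spike-in scaling in both comparisons of SMARCB1 with GFP. With dBRD9-A in GFP cells GADD45A fell by 0.62 ± 0.06 log2 (SE, adjusted p = 1.53e-06) and NEIL2 rose by 0.17 ± 0.03 (SE, adjusted p = 0.00205). In SMARCB1 cells NEIL2 rose by 0.17 ± 0.04 log2 (SE, adjusted p = 0.016) and NTHL1, another glycosylase, fell by 0.35 ± 0.07 (SE, adjusted p = 0.0171), and each lost the call without any 1 of 4 libraries, for NEIL2 replicates 2 and 3 in DMSO and 1 and 3 in dBRD9-A of the SMARCB1 cells, for NTHL1 replicates 1 and 2 in DMSO and 1 and 3 in dBRD9-A.

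Among genes that supply the methyl group, more fell than rose with SMARCB1 on TMM-scaled libraries: of 14 tested genes of the methionine cycle, 1 rose and 7 fell in both DMSO and dBRD9-A, a share called of 57.1% beside 65% and 63.3% of all genes, although with spike-in scaling 4 rose and 4 fell in DMSO and 1 rose and 13 fell in dBRD9-A. MTR, methionine synthase, rose by 0.62 ± 0.04 log2 (SE, adjusted p = 9.43e-11). AHCYL2 and AHCYL1, paralogs of the enzyme that clears S-adenosylhomocysteine, fell by 1.74 ± 0.07 and 0.80 ± 0.03 log2 (SE, adjusted p = 1.51e-13 and 1.26e-13). With dBRD9-A in GFP cells 1 rose and 3 fell, or 28.6% beside 15.9% of all genes. AHCYL2 was among those that fell, by 0.58 ± 0.06 log2 (SE, adjusted p = 2.77e-06). In SMARCB1 cells 0 changed, beside 1.93% of all genes. A further list of 18 genes covers alpha-ketoglutarate, the TET cosubstrate, and nearby steps. It includes succinate dehydrogenase and fumarase genes, which neither make nor use alpha-ketoglutarate. Of these 18 genes, 2 rose and 7 fell with SMARCB1 in DMSO, or 50% called beside 65% of all genes. The list's median was just above 0, and 10 rose and 2 fell with spike-in scaling. IDH1, a cytosolic enzyme that makes alpha-ketoglutarate, had 992 ± 12.7 CPM in GFP cells and 456 ± 13.1 CPM in SMARCB1 cells with DMSO (SD, n = 3). It fell by 1.12 ± 0.03 log2 (SE, adjusted p = 2.5e-15), and by 0.95 with spike-in scaling. IDH2, its mitochondrial counterpart, rose by 0.37 ± 0.04 log2 (SE, adjusted p = 9.91e-07). In dBRD9-A 7 of the 18 rose and 5 fell with SMARCB1, or 66.7% beside 63.3% of all genes, and 0 and 16 with spike-in scaling. With dBRD9-A, 4 of the 18 fell in GFP cells, or 22.2% beside 15.9% of all genes. All 18 rose there with spike-in scaling. In SMARCB1 cells 0 changed, beside 1.93% of all genes.

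DNMT1 is typically highest in S phase, so cell cycle genes were read beside it. With SMARCB1 in DMSO, 18 of 42 S phase genes rose and 8 fell, and 44 of 54 G2/M genes rose and 2 fell, or 61.9% and 85.2% called beside 65% of all genes. With spike-in scaling 30 S phase genes rose and 0 fell, and 50 G2/M genes rose and 2 fell. The summed S phase level was 5130 to 5250 CPM in GFP cells with DMSO and 5441 to 5501 CPM in SMARCB1 cells with DMSO. The G2/M sums were 9203 to 9279 and 10550 to 10850 CPM, so neither sum overlapped between these groups. In dBRD9-A, 22 S phase genes rose and 6 fell, and 42 G2/M genes rose and 3 fell with SMARCB1. These are 66.7% and 83.3% called beside 63.3% of all genes. With spike-in scaling those counts became 3 and 30, and 4 and 23. For dBRD9-A in GFP cells, where DNMT1 had no call, 0 S phase genes rose and 4 fell, and 7 G2/M genes rose and 1 fell. These are 9.52% and 14.8% called beside 15.9% of all genes. With spike-in scaling the counts were 42 and 0, and 54 and 0. The part of the cell cycle in the level of DNMT1 was not tested.

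Germ cell genes whose promoters are classically silenced by methylation had few or no counts in every group. Of 27 such genes, 0 passed the filter on low counts, 13 had 0 counts in all 12 libraries, and 24 had at most 3 counts in every library. The exceptions were STK31 with at most 6 counts, MAEL with at most 9 and TEX14 with 3 to 14 in each library. No member of this list could therefore be tested.

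The genes most like DNMT3B and DNMT3A over the 12 libraries were sought among 12584 genes, by the smallest root mean square difference of log2 CPM centred on each gene's mean. For DNMT3B, whose group means span 1.02 log2, they were PWWP2A (0.0472 log2) and PRMT3 (0.0491 log2). PRMT3, an arginine methyltransferase, was 0.81 log2 lower with SMARCB1 in DMSO in the same fit and rose by 0.24 with dBRD9-A in GFP cells. PRMT3 was chosen for its likeness over these same libraries, so these differences follow from the choice and are no test. For DNMT3A, which spans 0.62 log2, they were TLE4, a transcriptional corepressor (0.0562 log2), and ENSG00000258634, to which no symbol was paired (0.0564 log2).

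Several members share sequence with other genes, and whether the counting used strand is not given in the sources used here. In GENCODE, DNMT1 overlaps S1PR2 on its strand and MIR4322 on the other, TET1 the pseudogenes COX20P1 and RPS3AP37, MBD2 the small RNA gene SNORA37 and DNMT3A the small RNA gene MIR1301, all on the same strand, and TET2, UHRF2 and TET3 each overlap an antisense or unclassified gene on the opposite strand. DNMT3A and TDG have the pseudogenes DNMT3AP1 and TDGP1. How the counting divided such reads is not known, and DNMT3B had no overlapping gene in this annotation.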

How the data were processed

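Gene expression was measured by RNA sequencing in 12 libraries, 3 in each of 4 groups taken from the sample labels. The labels' protocols name the Qiagen RNeasy plus kit for RNA and the TruSeq Stranded mRNA kit for the libraries. The authors deposited 3 tables of expected counts per gene, which RSEM estimates and which need not be whole: 2.572% of values were not. Libraries found in more than 1 table had identical values (6 of 6). The submitters' processing notes name STAR, RSEM 1.3.1, DESeq2 and the builds GRCh37 and hg19, without role or order. The annotation, and how spike-ins were added, are not given in the sources used here.

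Expected counts were rounded. Ensembl identifiers, without version, were paired with symbols (51996 of 57820 rows), and overlaps and transcript lengths were read from GENCODE 29 (52338 rows), which may differ from the annotation used for counting. UHRF1 was not analysed, because its identifier in the reference tables matched no row and older identifiers were not sought. A further marker of other cell types is not reported here. The 40 spike-in rows entered neither library sizes nor tests.

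Tests used edgeR 4.0.16 in R 4.3.3: filterByExpr with a minimum count of 10 (15750 genes kept), TMM scaling (factors 0.9765 to 1.016), a quasi-likelihood fit with 1 coefficient per group over all 12 libraries, and Benjamini-Hochberg adjustment over all genes, with adjusted p under 0.05 called. The script was tested on simulated data. SEs come from the quasi-F statistic, and intervals cover 95%. CPM values use TMM-scaled libraries. Alternatives were DESeq2 1.42.0, its size factors, spike-in scaling, no filter, a replicate block, only the groups compared, leaving out each library, and a log2 fold change of at least 1. Replicate numbers were checked for pairing and did not pair the samples (correlations of residuals -0.0559 to 0.0611). Each library counted as a sample. Replicates differed beyond sampling noise (chi-square per degree of freedom 3.016 to 26.23), which does not show whether they were separate cultures.

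The members and the gene lists were chosen with earlier results of these data known. Named list genes are, per comparison, the 2 largest rises and 2 largest falls called with a mean of at least 50 counts, shown selectively. Genes like a member were sought where its group means span at least 0.58 log2. Lengths of the principal transcript, count ratios to DNMT1, CpG windows and the length of all exons were chosen after seeing the data.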

Additional observations from a re-analysis of the deposited data

Results flagged for a closer look

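The interaction in the edgeR fit tests whether the response to dBRD9-A differed between SMARCB1 and GFP cells. It was called for 6 of the 175 members and list genes tested (3.43%), beside 3.8% of all genes, and several of the 6 calls did not hold in other fits. DNMT3B had -0.17 ± 0.04 log2 (SE, adjusted p = 0.0488), rising by 0.18 in GFP cells and differing by 0.01 in SMARCB1 cells. It was called in 3 of 12 fits without 1 library, missed the threshold with a replicate block (0.0721) and without the filter on low counts (0.0575), and stood at -0.66 with spike-in scaling, where the median of all genes was -0.49. AHCYL2, of the methionine cycle list, had 0.74 ± 0.10 (SE, adjusted p = 0.000151), and GADD45A, of the repair list, 0.55 ± 0.08 (SE, adjusted p = 0.000501). Both were called in 12 of 12 such fits but not with spike-in scaling (0.25, adjusted p = 0.086, and 0.05, adjusted p = 0.72). Of the G2/M genes, PSRC1 had -0.24 ± 0.06 (SE, adjusted p = 0.0189), TACC3 -0.23 ± 0.06 (SE, adjusted p = 0.0468) and CDCA2 -0.17 ± 0.04 (SE, adjusted p = 0.032), called in 11, 4 and 5 of 12 fits. PSRC1 missed the threshold without GFP replicate 2 in dBRD9-A.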

How the results depend on the processing

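Scaling was the choice that mattered most. For SMARCB1 in DMSO, spike-in scaling added calls for TET1, TET3 and UHRF2 and removed those of DNMT3A and TDG. With spike-in scaling, which moves the median of all genes, the members called went from 2 to 9 for dBRD9-A in GFP cells, from 5 to 8 for SMARCB1 in dBRD9-A and from 1 to 9 for the interaction. Signs turned for TDG with SMARCB1 in DMSO (0.03), TET3 (0.29) and UHRF2 (0.35) with dBRD9-A in GFP cells, DNMT1 (-0.22), TET1 (-0.29), TET2 (-0.28) and TET3 (-0.24) with SMARCB1 in dBRD9-A, and MBD2 in the interaction (-0.48). Members with a log2 fold change of at least 1 numbered 0, 0 and 0 with SMARCB1 in DMSO, with dBRD9-A in GFP cells and in the interaction, and 1 (DNMT3B) with SMARCB1 in dBRD9-A. DESeq2's test and its size factors changed no call or called direction of a member in any comparison. The interaction count fell from 1 to 0 without the filter on low counts and also with a replicate block, where DNMT3B had an adjusted p of 0.0721; the block changed no other count of members. Leaving out 1 library gave 6 to 8 members with SMARCB1 in DMSO, 2 with dBRD9-A in GFP cells, 0 with dBRD9-A in SMARCB1 cells, 4 to 5 with SMARCB1 in dBRD9-A and 0 to 1 in the interaction. Fitted on the groups compared, DNMT1 with SMARCB1 in dBRD9-A missed the threshold (adjusted p = 0.0605). The count over all genes for dBRD9-A in SMARCB1 cells was 304, against 652 without the filter, 873 with spike-in scaling, 159 with only those groups, and 174, 169 and 196 without SMARCB1 replicates 2 or 3 in DMSO or replicate 3 in dBRD9-A. With spike-in scaling the count went from 2504 to 11310 for dBRD9-A in GFP cells and from 598 to 11270 in the interaction. Genes with a log2 fold change of at least 1 numbered 2305 and 2300 with SMARCB1 in DMSO and in dBRD9-A, 143 with dBRD9-A in GFP cells, 23 in SMARCB1 cells, and 42 in the interaction. The cause of these moves was not tested. With 3 replicates a group, the smallest called difference of a member, 0.10 log2 for DNMT1 with SMARCB1 in dBRD9-A, lost its call in 4 of 12 such fits.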
